A study of Acipenser ruthenus with 15 samples.

Results

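The sterlet (Acipenser ruthenus) is a small sturgeon. In its eggs, 63 assembled transcripts had higher mean levels at both ends of the animal-vegetal axis than between them, under the scaling used here. They were chosen from 42878 transcripts by their measured levels. With the authors' own scaling factor, 0 transcripts met the same conditions. Each of 3 eggs, numbered 10, 18 and 20 and labelled as oocytes of stage 1, was embedded, sliced on a cryostat and divided into 5 sections. These are named A to E, where A holds the animal pole and E the vegetal pole, with B, C and D between them. One library of ribosome-depleted total RNA was made from every section, giving 15 libraries and n = 3 per section. The sources used here name no treatment or genotype, and they do not give the relation of the eggs to females, so the p-values cover the spread between these 3 eggs only.

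An animal egg is loaded by its mother with RNA that serves the embryo before its own genes are switched on. Many of these RNAs are spread evenly, and some are held at one place. The animal pole is the side of the nucleus and of the polar bodies, while the vegetal side holds most of the yolk. In the frog Xenopus, whose egg cleaves completely as a sturgeon egg does, RNAs held at the vegetal pole take part in setting up endoderm, body axis and germ line. A transcript that is high at both poles belongs neither to a simple animal nor to a simple vegetal class.

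The deposited counts pair no transcript with a gene name. Of the 63 IDs, 0 matched the table of sterlet genes used here, so the transcripts are called by assembly ID and neither function nor sequence can be given. The labelled egg tissue could not be checked against marker genes for the same reason. Levels are CPM (counts scaled to a common library size) after TMM scaling, which assumes that most transcripts do not differ. CPM is a share of the RNA sequenced in a library and not an amount per section. Library totals ran from 4347026 counts in section C of egg 20 to 14500611 in section D of egg 18. In those libraries the median count of the 63 transcripts was 44 and 161, so sampling noise is greatest in the centre of egg 20.

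Transcripts qualified by their section means over the 3 eggs. The mean over all 15 libraries had to be at least 5 and below 600 CPM, a window that held 17167 transcripts. Sections A and E both had to exceed B and D and to be at least 1.3 times section C, and C had to lie below A and below E in every egg. Limits on the share of A (0.6) and of E (0.5) in the sum of the 5 means were set as well. In the window, 1008 transcripts had both poles above B and D, 91 of these met the 1.3-fold condition, and 63 met it with the same order in all 3 eggs. The limits on A and E removed 0 of them. The 63 make up 0.367% of the window, and the mirror image, with B and D above both poles and C at least 1.3 times both poles and above them in every egg, was met by 40 transcripts. All values of A or E against B, C or D below are therefore a description of the choice and carry no test.

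The pattern was shallow for most of the 63. Section A stood at a median of 1.65 times section C (range 1.31 to 7.18), and section E at 1.47 times (1.303 to 2.62). Over the other 17104 transcripts of the window these medians were 0.998 and 1.00. The lower of the poles reached at least 1.5 times section C in 21 transcripts and at least 2 times C in 4. Of these 4, trinitytrinLocGG_83412c0g1t1 set the top of the range in E and had 2 counts in section C of egg 18. In section C of egg 20, trinitytrinLocDN51068c6g3t1 had 9 counts, trinitytrinLocDN44493c0g1t1 17 and trinitytrinLocDN52016c2g1t2 89. Between the poles and the centre, section B had a median of 1.196 times C and section D of 1.17 times C. The choice of low values in C favours ratios above 1 here too. The lowest section was C in 53 transcripts, D in 7 and B in 3, an order that the 1.3-fold condition on C, with none on B and D, favours. In 1 transcript, trinitytrinLocDN53359c3g1t4, section C stood above both of its neighbours, at 20.4 ± 5.80 CPM in C against 18.2 ± 2.39 in B and 19.4 ± 1.97 in D (SD, n = 3), and in eggs 10 and 20 it did not lie above both.

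**Figure D1:**
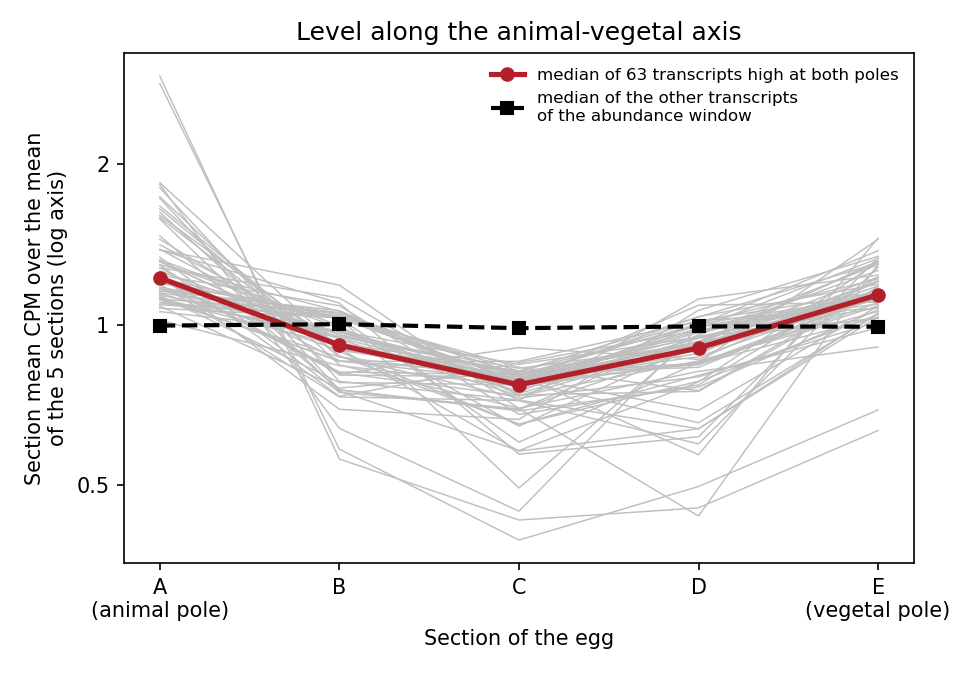
Level of each of the 63 transcripts along the axis (grey lines), as its section mean over the mean of its 5 sections on a log axis, with the median of the 63 (red) and of the other 17104 transcripts of the abundance window (black, dashed). The red median runs from 1.22 in section A through 0.771 in C to 1.14 in E, while the black one stays between 0.985 and 1.00.

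The 63 were mostly of low or middle abundance. Their mean level had a median of 13.2 CPM, against 23.3 CPM in the rest of the window, and 26 of them lay under 10 CPM, 28 from 10 to 50 and 9 at 50 or above. Their summed share of a library was 0.256 ± 0.0213% at the animal end (A) and 0.196 ± 0.00862% at the vegetal end (E). It was 0.174 ± 0.00967% for B, 0.142 ± 0.00785% for C and 0.160 ± 0.00961% for D (SD, n = 3). The 3 libraries of section A and those of section C did not overlap in this share, nor did those of E and C, as the choice makes likely.

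The limits of the rule cut through a continuum. The transcripts nearest to the 1.3-fold limit had a lower pole of 1.303 and 1.305 times C, and those just short of it 1.293 and 1.287 times. At the abundance limit, the lowest included means were 5.04 and 5.09 CPM and the highest excluded ones both 4.93 CPM. Against the higher of B and D, the included transcripts went down to 1.013 times and the excluded ones began at 0.986 times. A further 28 transcripts met every other condition and failed in the order of C against the poles in at least 1 egg.

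The clearest case was trinitytrinLocDN52016c2g1t2, whose lower pole stood at 1.68 times the highest of B, C and D. In eggs 10, 18 and 20 it had 42.6, 58.3 and 55.4 CPM in section A, then 23.8, 24.6 and 25.9 in B, 17.3, 20.7 and 19.5 in C, 27.5, 24.0 and 25.8 in D, and 39.2, 46.3 and 44.4 in E. With TMM, every library of A and of E lay above every library of B, C and D. With the authors' factor as scaling, its mean in section E was 30.9, below 32.5 in B, while A was still the highest at 55.6. Section C held 222, 145 and 89 counts of it in eggs 10, 18 and 20. The transcript was picked on these same libraries, and the part of the choice in its trough was not tested.

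trinitytrinLocDN53054c0g2t1 was an abundant transcript with nearly equal poles under TMM. It stood at 173, 169 and 183 CPM in section A, 119, 117 and 114 in B, 130, 110 and 106 in C, 129, 137 and 133 in D, and 175, 185 and 168 in E. The poles did not overlap with the inner sections here either, and sections A and E overlapped with each other. With the authors' factor, its mean in section E was 126, below 153 in B and 132 in C, while A was still the highest at 187. The most abundant of the 63, trinitytrinLocDN54825c1g1t2, was shallower and even more regular, at 286 ± 5.36 CPM for A, 231 ± 5.77 for B, 205 ± 2.15 for C, 249 ± 16.0 for D and 280.4 ± 1.49 for E (SD, n = 3).

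trinitytrinLocGG_56045c1g1t1 leaned to the animal pole. It stood at 12.2, 18.4 and 13.7 CPM in section A, 7.01, 6.56 and 5.79 in B, 5.46, 7.84 and 4.39 in C, 7.09, 5.44 and 7.07 in D, and 10.4, 9.69 and 7.25 in E. Section A lay above all inner libraries, but section E of egg 20 lay within their range.

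trinitytrinLocGG_73327c2g2t1 met the rule through eggs 10 and 20. Its levels in eggs 10, 18 and 20 were 8.85, 4.31 and 8.07 CPM in section A, 5.38, 4.68 and 4.10 in B, 4.21, 3.56 and 5.05 in C, 7.09, 4.19 and 4.71 in D, and 12.0, 4.27 and 6.69 in E. In egg 18, with 25 to 57 counts per library, the 5 sections lay between 3.56 and 4.68 CPM and section B was the highest. The means over eggs passed the rule although this egg was nearly flat.

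**Figure D2:**
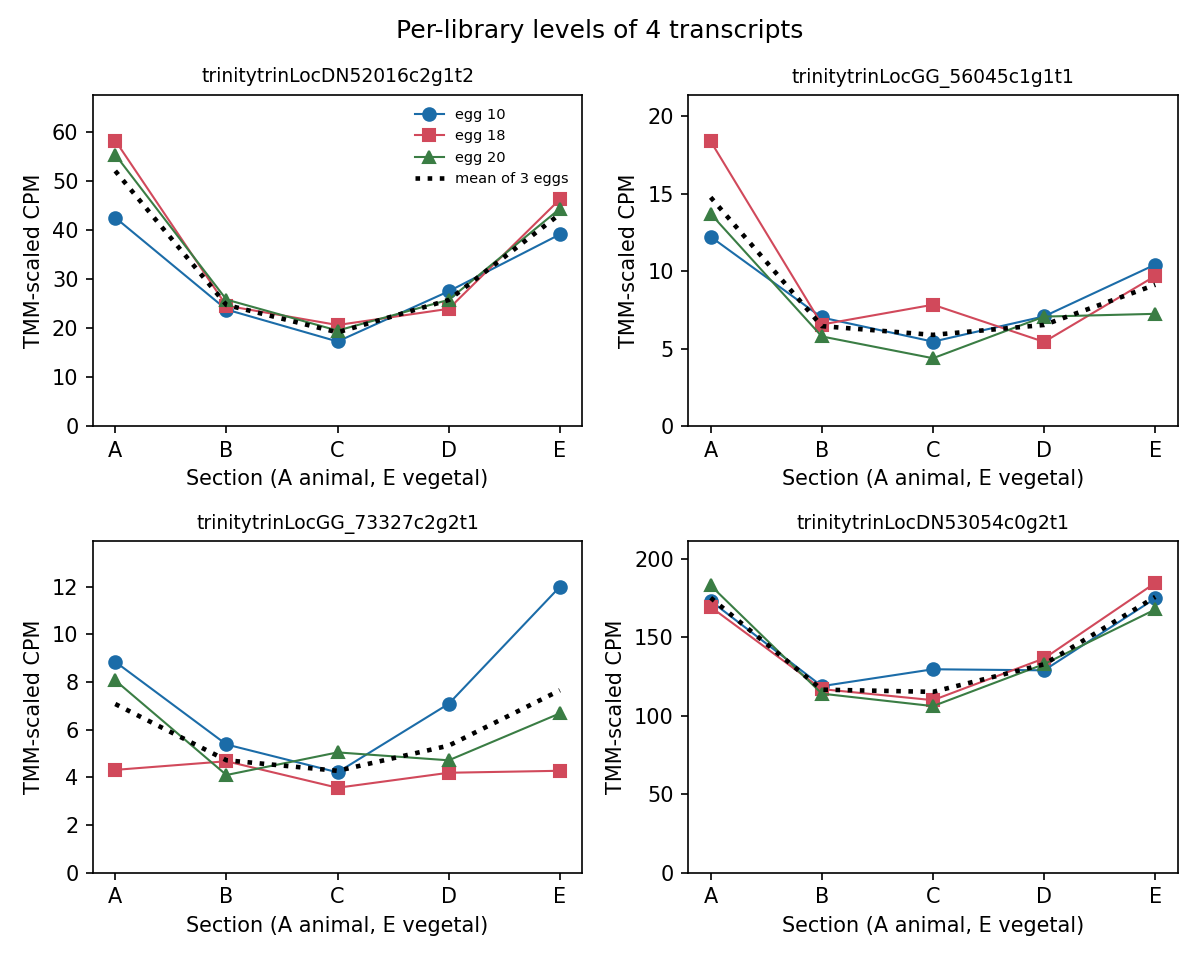
TMM-scaled CPM of 4 transcripts in sections A to E, with 1 line per egg and the mean of the 3 eggs dotted. The upper pair has higher means in A, the lower pair in E, and in trinitytrinLocGG_73327c2g2t1 the line of egg 18 stays between 3.56 and 4.68 CPM.

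Few of the 63 showed the full pattern in every egg. Both poles lay above B, C and D in 3 of 3 eggs for 18 transcripts, in 2 for 29, in 1 for 14 and in 0 for 2. Among the other 17104 transcripts of the window, 19 had this order in all 3 eggs. By egg, it was seen in 52 of the 63 in egg 10, in 41 in egg 18 and in 33 in egg 20, against 8.29%, 3.20% and 5.24% of the rest of the window. The rule chose the 63 on these same libraries, so their distance from the rest follows from the choice.

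The rule was also applied to 2 eggs at a time, and the outcome was read in the egg left out. Eggs 18 and 20 chose 98 transcripts, of which 46 (46.9%) had both poles above section C in egg 10, against 26.2% of the rest of the window. Eggs 10 and 20 chose 142, of which 67 (47.2%) had that order in egg 18, against 20.6%. Eggs 10 and 18 chose 77, of which 59 (76.6%) had it in egg 20, against 26.9%. Egg 20 also had the section C library of lowest depth, and the part of depth in this share was not tested. Both poles above all of B, C and D were found in 31.6%, 27.5% and 31.2% of the transcripts so chosen, against 8.49%, 3.23% and 5.27% of the rest, with egg 10, 18 or 20 left out. The rest of the window includes transcripts with a pole at or below the inner sections, which were not eligible for the choice. The shares of the chosen and of the rest may differ for that reason alone, and its part was not tested. The lists also differ from the choice on all eggs, which held 38 of the 98, 47 of the 142 and 48 of the 77. Nothing about the transcripts chosen on all eggs is read from these shares.

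The pole-to-centre ratios were smaller in the egg left out than in the eggs that chose, except for section A over C in egg 20. Section A over C had a median of 1.62 in the choosing eggs 18 and 20 and of 1.121 in egg 10. It was 1.53 in eggs 10 and 20 and 1.25 in egg 18, and 1.58 in eggs 10 and 18 and 1.62 in egg 20. Section E over C had medians of 1.49, 1.44 and 1.55 in the choosing eggs and of 1.24, 1.11 and 1.27 in egg 10, 18 or 20 left out. The rest of the window, which includes transcripts not eligible for the choice, stood between 0.988 and 1.02 in these ratios. Without egg 10 or egg 18, 38 or 47 of the 63 transcripts were chosen again, and 48 without egg 20.

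**Figure D3:**
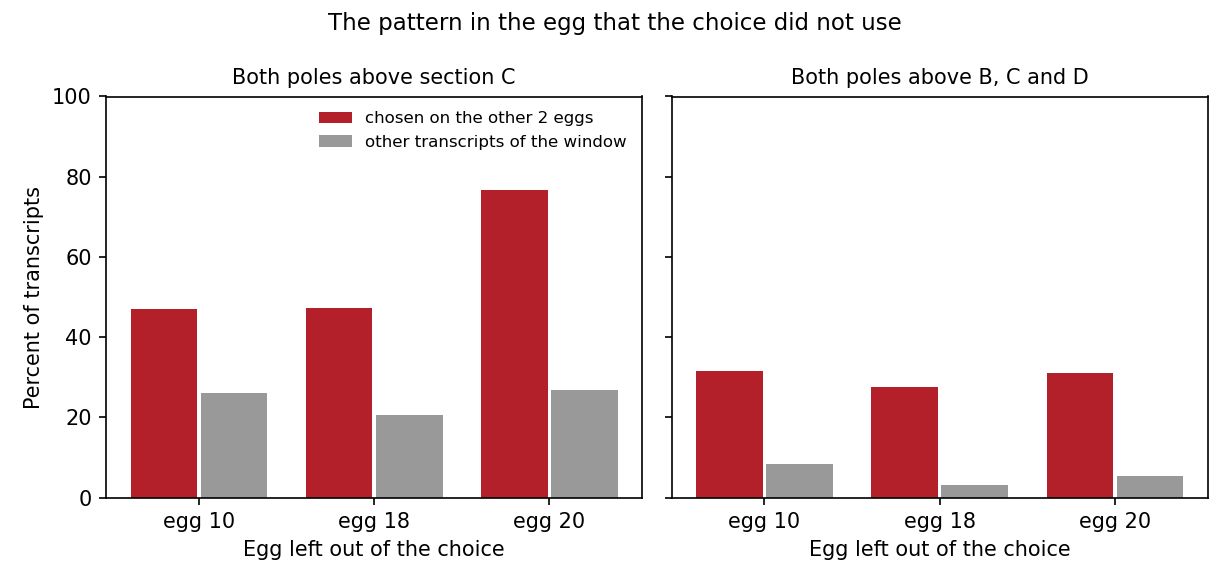
Percent of transcripts with both poles above section C (left) and above B, C and D (right) in 1 egg, for those chosen by the rule on the other 2 eggs (red) and for the rest of the abundance window (grey). The red bars run from 46.9 to 76.6% and the grey from 20.6 to 26.9% on the left, and from 27.5 to 31.6% against 3.23 to 8.49% on the right. The grey bars include transcripts with a pole at or below the inner sections, which the rule could not choose. The red bars include transcripts that were not chosen with all eggs.

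The rule did not ask which pole was higher, so section E against section A was tested, with edgeR's quasi-likelihood test over 29102 transcripts, egg as a block and Benjamini-Hochberg adjustment at 0.05. All 63 passed the low-count filter. The test called 15 of them, 1 with E and 14 with A as the higher pole, against a background of 35.1% called among all transcripts tested (17.2% higher in E, 17.8% higher in A). The share called among the 63 was 23.8%, with 1.59% higher in E and 22.2% higher in A. Because the rule requires both poles to exceed the means of B, C and D, transcripts with a pole at or below these were not eligible, and nothing is read from the lower share called. The median log2 change was -0.06 for the 63 and -0.03 for all tested transcripts.

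Of the 15 called transcripts, all but 1 were higher in A. The calls higher in A were 22.2% of the 63, against 17.8% of all tested transcripts, and those higher in E 1.59% against 17.2%. Over the 63, the mean of E exceeded that of A for 20 transcripts and the mean of A was the higher for 43 (68.3%, against 51.1% of the rest of the window), and the order was the same in 3 of 3 eggs for 4 and 21 of them. In 11 transcripts A stood at least 1.5 times above E and all 11 were called, while 0 stood that far above in E. In this group section E had a median of 1.52 times C and section A of 2.53 times C. In 30 transcripts the poles lay within 1.1 times of each other, with medians of 1.43 times C in E and 1.47 times in A, and 0 of these were called. These classes were cut on the difference that the test measures, so the calls within them largely follow from the cut. The share called in such classes was not counted over all tested transcripts. For 36 of the 48 transcripts not called, the 95% interval of the change lay within 1.5-fold either way, and for the other 12 it reached beyond that.

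The greatest differences belonged to a pair with much the same profile. trinitytrinLocGG_16092c3g1t1 stood at 22.8, 8.69 and 11.2 CPM in section E of eggs 10, 18 and 20, against 50.5, 72.3 and 74.3 in section A. Its inner sections averaged 12.6 ± 3.25 CPM in B, 9.66 ± 4.11 in C and 10.2 ± 6.74 in D (SD, n = 3). The log2 change of E against A was -2.34 ± 0.31 (SE), with an adjusted p of 1.16e-05 in edgeR. trinitytrinLocGG_29538c0g1t1 stood at 24.1, 10.8 and 13.0 CPM in section E, against 46.9, 68.3 and 81.3 in section A, a log2 change of -2.13 ± 0.30 (SE) with an adjusted p of 2.12e-05 in edgeR. In both, section E overlapped with the inner sections over the libraries and section A did not. Whether the pair shares sequence, which could make the counting split reads between them, was not tested.

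trinitytrinLocDN53681c0g1t3 was the single transcript called higher at the vegetal pole. It stood at 19.9, 18.4 and 20.9 CPM in section E, against 15.05, 15.9 and 12.9 in section A, with no overlap. The log2 change was 0.44 ± 0.14 (SE), with an adjusted p of 0.0204 in edgeR. The call ended without egg 20 (adjusted p of 0.238 in edgeR) and without the egg as a block (0.0646), and the change turned to -0.0897 with the spike-in and to -0.14 with the deposited factor as scaling. Of the transcripts described above, trinitytrinLocGG_56045c1g1t1 was called too, with a log2 change of -0.69 ± 0.20 (SE) and an adjusted p of 0.0108 in edgeR. That call ended without egg 18 (0.065) and without egg 20 (0.138). trinitytrinLocDN52016c2g1t2 was not called, at -0.26 ± 0.11 (SE) with an adjusted p of 0.084 in edgeR. It was called higher in A with total counts (-0.34), the spike-in (-0.79) and the deposited factor (-0.84) as scaling. Without section A of egg 10 it was called too (-0.36), and in the other settings tried it was not. The other 2 of those shown by library, trinitytrinLocGG_73327c2g2t1 and trinitytrinLocDN53054c0g2t1, stood at 0.07 ± 0.23 and 0.00 ± 0.09 on the log2 scale.

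Of the 15 calls, 8 held whichever egg was left out, and 12 held without egg 18. Without egg 10, 19 of the 63 were called. Without egg 20 only 8 transcripts of the 63 were called, higher in A in each case. The share of all tested transcripts called was not counted with an egg left out. Leaving the egg out of the model as a block gave 9 calls, all higher in A. Of all tested transcripts, 20.3% were then called either way, 9.42% higher in A and 10.9% higher in E.

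**Figure D4:**
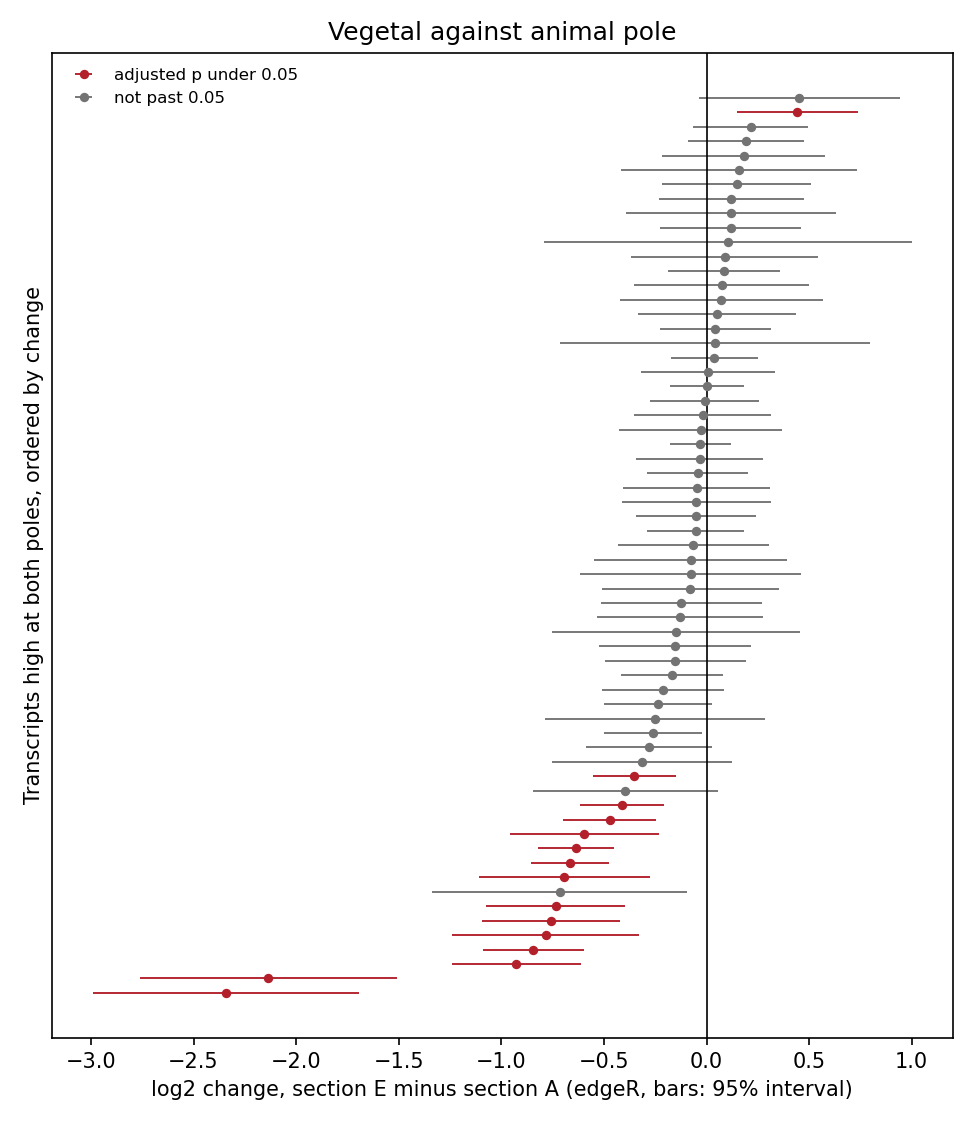
log2 change of section E against section A for each of the 63 transcripts, ordered by size, with 95% intervals from the edgeR fit, in red where the adjusted p passed 0.05. There are 14 red points left of 0 and 1 to its right, and the pair at the bottom lies at -2.34 and -2.13.

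The inner slopes were compared as well, since the rule keeps B and D below the poles without setting one against the other. Section D was called against section B for 8 of the 63 (12.7%), 4 higher in D and 4 higher in B, against a background of 22.1% called, 11.5% higher in D and 10.6% higher in B (edgeR, adjusted over 29102 transcripts). An unadjusted p under 0.05 was found for 16 of the 63 and for 33.5% of all tested transcripts. Transcripts with a mean of B or D above a pole were not eligible, so nothing is read from the lower shares. The 4 named below had the largest called changes in each direction and were picked on them.

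trinitytrinLocDN52519c0g1t1 stood at 3.88, 5.52 and 4.96 CPM in section D, against 9.99, 16.5 and 12.4 in section B. The log2 change was -1.42 ± 0.32 (SE), with an adjusted p of 0.00361 in edgeR and 0.0884 without egg 18. Its lowest section was D rather than C, which stood at 7.61 ± 1.85 CPM (SD, n = 3), so its lowest point lay on the vegetal side of the centre. trinitytrinLocDN51068c6g3t1 stood at 3.13 ± 0.167 CPM in D and 5.58 ± 1.38 in B, with an adjusted p of 0.0454 in edgeR.

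Others leaned the other way. trinitytrinLocDN44493c0g1t1 stood at 3.34, 6.62 and 9.18 CPM in section D, against 2.21, 3.94 and 6.22 in section B, higher in D in every egg, and the sections overlapped across eggs. Its log2 change was 0.64 ± 0.18 (SE), with an adjusted p of 0.0149 in edgeR. trinitytrinLocGG_48447c1g1t1 stood at 8.89 ± 1.65 CPM in D and 5.80 ± 0.786 in B, with an adjusted p of 0.0178 in edgeR. These calls were fragile: 0 of the 8 were made again with each egg left out in turn. There were 9 calls without egg 10, 3 without egg 18 and 1 without egg 20. The share of all tested transcripts called was not counted with an egg left out. Without the egg as a block there was 1 call, against 9.58% of all tested transcripts. DESeq2 called 5 of the 8 and 1 other, against 20% of all tested transcripts.

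The 63 were not particularly even between eggs. The highest egg mean over the lowest, taken over the 5 sections of each egg, had a median of 1.28 for the 63 and of 1.26 for the rest of the window. It was under 1.5 for 44 transcripts and at least 2 for 7. In trinitytrinLocDN35323c0g1t1, singled out after its values were seen, egg 10 had 3, 5, 3, 5 and 9 counts in sections A to E. Its mean over sections was 0.548 CPM in egg 10, 28.5 in egg 18 and 32.3 in egg 20. The order of section C below both poles in egg 10 thus rests on 3 counts in C against 3 in A and 9 in E, and both poles lay above B, C and D in 0 of the 3 eggs.

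The assembly IDs show a feature that the rule did not use. The GG form, which the Trinity assembler gives to genome-guided assemblies, was carried by 27 of the 63 (42.9%) and by 4689 of the 17167 transcripts of the window (27.3%). The other 36 had the DN form of de novo assemblies. The 63 were also less abundant than the rest of the window (median of 13.2 against 23.3 CPM). The part of abundance in the share of GG forms was not tested. The 63 came from 62 Trinity genes, 58 of which have a single transcript in the files. One gene gave 2 of them: trinitytrinLocDN53441c1g1t2 had section means of 58.0, 46.7, 39.1, 48.3 and 55.9 CPM from A to E, and trinitytrinLocDN53441c1g1t6 had 84.8, 63.7, 48.0, 60.2 and 66.6 CPM. Reads may be shared between transcripts of a gene, so these are not independent. There were 2 Trinity components, the assembly units that hold the genes, with 2 of the 63 each, this gene's among them. Reads may be shared within a component as well. Among the other transcripts of the 62 genes, 1 lay in the window, trinitytrinLocDN53681c0g1t2. It too stood at least 1.3 times above section C at both poles, at 1.58 times in A and 1.53 times in E, and was no member. When counts were summed per Trinity gene before the rule was applied, 62 genes met it, and these were the 62 genes of the 63 transcripts.

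Whether a transcript counts as high at the vegetal pole depended on the scaling of the libraries. DESeq2 size factors gave 60 transcripts under the same rule, 59 of them among the 63, and total counts gave 28, all among the 63. With the row named as a spike-in, an RNA added to a sample, as the scaling, 6 met the rule, 2 of them among the 63. With the authors' own factor, by which they divided the counts, 0 met it. All 63 had a higher mean in section A than in section C under these 4 scalings. Section E stayed above C for all 63 with DESeq2 size factors and with total counts, for 53 with the spike-in and for 21 with the authors' factor.

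These scalings moved the rest of the window too. Section E over C had a median of 1.11 for the 63 and 0.742 for the rest with the spike-in, and of 0.910 and 0.623 with the authors' factor. Section A over C had medians of 1.70 and 1.06 with the spike-in and of 1.52 and 0.928 with the authors' factor. That the 63 stand above the rest in these ratios follows from their choice. Relative to TMM the spike-in moved the median of all tested transcripts by -0.48 in E against A, and the authors' factor by -0.58, on the log2 scale. With the spike-in 29 of the 63 were called higher in A than in E, against 35.7% of all tested transcripts, and with the authors' factor 54, against 54.9%. Under these scalings 0 of the 63 were called higher in E, against 6.72% and 7.44% of all tested transcripts.

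**Figure D5:**
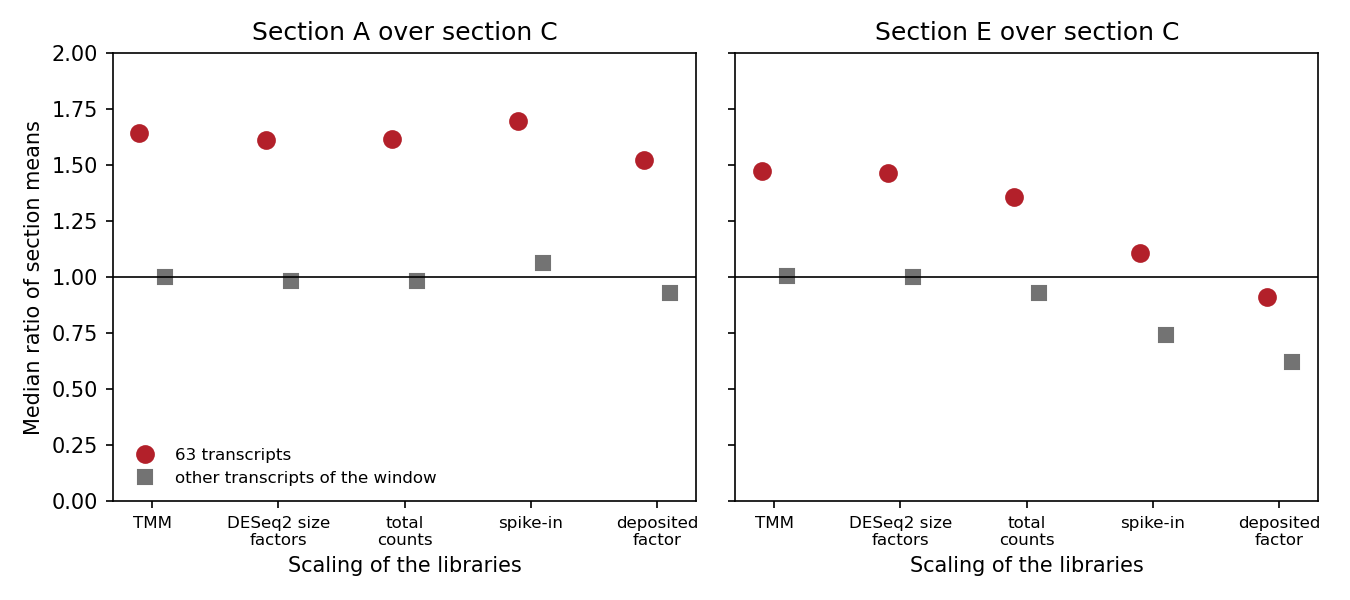
Median ratio of section A (left) or section E (right) to section C under 5 scalings, for the 63 transcripts (red circles) and the other transcripts of the abundance window (grey squares), with a line at 1. The red circles lie above the grey squares throughout, as the choice of the 63 sets, and for section E they fall from 1.47 with TMM to 0.910 with the deposited factor of the authors.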

How the data were processed

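Ribosome-depleted, strand-specific RNA libraries of 5 sections from each of 3 eggs were used, 15 in all. The authors deposited whole-number counts per assembled transcript together with a normalized signal; counts over signal gave 1 factor per library, called the deposited factor. Tools listed in the submitters' processing notes, with no roles, are DESeq2, kallisto, STAR 2.5.2b and Trimmomatic. How the transcripts were assembled is not stated in those sources. The spike-in row (0.0115 to 0.0235% of counts) was left out of every library size and test.

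The 63 transcripts and the tests were chosen with earlier results of these data known. Counts were scaled with TMM over all transcripts and tested with edgeR 4.0.16 (filterByExpr, glmQLFit, glmQLFTest; section and egg as additive terms over 15 libraries, 8 residual degrees of freedom), with Benjamini-Hochberg adjustment over 29102 transcripts. Sections of an egg are paired by origin. Deviations from section means correlated at 0.264 to 0.743 within an egg and -0.614 to 0.310 between different sections of different eggs (log2 of CPM plus 0.5). Standard errors are the log2 change over the root of F. The test and the rule were tested on simulated data with 2-fold changes, a fixed dispersion and no difference between eggs. Shallower patterns, such as most of the 63 have, were not simulated. At most 4 transcripts were to be named, the 2 with E above A and the 2 with A above E that had the largest lower pole against B, C and D. Others named are the most abundant, those with the largest called changes and a few picked after their values were seen. Alternatives were other scalings, filters and tests (DESeq2 1.42.0), no block, and each egg or library left out. Reads carry no molecular identifiers.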

Additional observations from a re-analysis of the deposited data

Results flagged for a closer look

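The deposited factor and the spike-in, used above only as alternative scalings, varied along the axis. The ratio of the deposited factor to the TMM-scaled library size was 1.498 times higher for section E than for section A. Every library held spike-in counts, 693 in the lowest, where 3 is the limit that a count of 0 allows. After TMM scaling the spike-in averaged 229 ± 21.4 CPM for D and 200.04 ± 36.5 CPM for E. It averaged 139 ± 25.2 CPM for A, 119 ± 10.5 CPM for B and 147 ± 19.1 CPM for C (SD, n = 3). The authors' factor and the spike-in are the scalings under which fewest of the 63 transcripts stood higher in E than in C. What the deposited factor stands for was not tested.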

How the results depend on the processing

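The number of transcripts meeting the rule was 63 with TMM, 28 with total counts, 6 with the spike-in, 0 with the deposited factor and 21 when the poles had to reach 1.5 times section C. It ran from 77 to 142 on leaving out an egg and, chosen after seeing the data, from 54 to 141 on leaving out a library, with 95 without section C of egg 10 and 141 without section C of egg 18, where the condition for that egg falls away. It was 94 at 1.2 times C and unchanged without limits on a section's share.

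For section E against A, 15 of the 63 were called with TMM (1 higher in E, 14 higher in A), 29 with the spike-in and 54 with the deposited factor, higher in A in each case, and 9 with no replicate block, also higher in A. The 1 higher in E became 0 with total counts, the spike-in, the deposited factor, no replicate block and sections A and E alone. Of all tested transcripts, 14.2%, 6.72%, 7.44%, 10.9% and 13.6% were called higher in E in these settings, in that order. Leaving out an egg gave 8 to 19 calls (0 to 2 higher in E, 8 to 17 higher in A), and leaving out a library 11 to 19 (0 to 2 and 10 to 18). For section D against B, 8 were called (4 higher in each), 59 with the spike-in and 49 with the deposited factor, with 0 higher in D (73.3% and 61.6% of all tested transcripts were called then), and 1 with no replicate block, higher in B. Total counts gave 2 higher in D and 9 higher in B, against 8.85% and 16.4% of all tested transcripts. DESeq2 gave 2 higher in B, against 8.86%. Leaving out an egg gave 1 to 9 calls (0 to 4 higher in D, 0 to 5 higher in B), and leaving out a library 4 to 10 (1 to 5 and 2 to 5). Leaving out an egg or library also leaves fewer samples, and shares of all tested transcripts called were not counted for those fits. The cause of the changes in the number of calls was not tested.

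Among named transcripts, 5 alternative values changed direction: trinitytrinLocDN53054c0g2t1 for E against A to -0.58 with the deposited factor, trinitytrinLocDN53681c0g1t3 for E against A to -0.0897 with the spike-in and -0.14 with the deposited factor, and, for D against B with the spike-in, trinitytrinLocGG_48447c1g1t1 to -0.33 and trinitytrinLocDN44493c0g1t1 to -0.31. For each of these 5, the main or the alternative value was called. The changed values of trinitytrinLocDN53681c0g1t3 and trinitytrinLocGG_48447c1g1t1 were not called. A further 273 kept direction and call, 40 lost the call, 6 gained one, and 12 changed sign with no call in either setting. The median log2 change of all transcripts for D against B shifted by -0.96 with the spike-in and by -0.59 with the deposited factor.

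Depth limits the low transcripts most: section C of egg 20 gave a median of 44 counts to the 63.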
